A study of Mus musculus with 6 samples.

Results

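The genes described here encode the amino acid transporter families Slc1, Slc3, Slc6, Slc7, Slc36, Slc38 and Slc43 of mouse liver, compared between livers of mice labelled re-fed and livers of mice fasted for 48 h. Every protein-coding gene of the deposited table whose symbol begins with one of these family names was taken, which gave 56 of the 23631 genes. The 56 rows carry 55 symbols, because Slc38a9, a lysosomal carrier that senses arginine, is listed under 2 Ensembl identifiers. Within these families members were taken by name and not by measured values. The families themselves were chosen with earlier results of these data known. The name rule also takes in Slc7a6os, a neighbour of Slc7a6 that is named after it and is not a carrier, the monoamine carriers Slc6a2, Slc6a3 and Slc6a4, and Slc43a3, a nucleobase carrier. Members of these families that were not analysed here include Slc38a8, Slc36a3, Slc6a11, Slc6a14, Slc6a15 and Slc7a12.

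The mice were males of the inbred strain C57BL/6J, and liver RNA of 6 libraries was sequenced. The refed group had 3 libraries and the fasted group 3, and no genetic change or drug is named for either. The sample labels call the first group re-fed, whereas the treatment protocol describes it as normally fed, so whether those mice had been fasted first is not settled. Neither the ages of the mice nor whether each library came from a separate animal is stated in the labels. P-values here therefore speak for the spread among these 6 libraries, part of which may be technical.

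Amino acids cross the hepatocyte membrane on carriers that differ in substrate and in driving force. System A and system N carriers of the Slc38 family bring in small neutral amino acids and glutamine with sodium, the Slc7 cationic carriers move arginine, lysine and ornithine, and the Slc1 carriers move glutamate or exchange neutral amino acids. Other Slc7 proteins are light chains that work only when bound to a heavy chain, Slc3a1 or Slc3a2. In the fasted state the liver takes up amino acids released by other tissues and uses their carbon for glucose and their nitrogen for urea.

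Total counts per library ranged from 29574528 to 36026753, with 18154 to 18699 genes detected. Expression is reported in CPM, for which each library's reads were brought to the same total after TMM scaling. On that scale 3 counts, taken as the floor, came to 0.0844 to 0.0946 CPM. The first principal component of log CPM separated the groups and held 82.6% of the variance. The second held 9.29% and set fasted replicate 3, at 48.7, apart from fasted replicates 1 and 2, at -26.0 and -19.8. In that library the summed CPM of 5 neutrophil markers was 136, against 1.05 and 1.93 in the other fasted libraries and 0.141 to 0.442 in the refed ones; S100a8, S100a9 and Mpo made up most of it, and the defining marker Ly6g had at most 1 count in any library. All 7 Kupffer cell and macrophage markers were tested, and their summed CPM was 43.9 to 57.3 in refed libraries and 16.0, 46.9 and 62.9 in fasted replicates 1, 2 and 3. The 7 hepatocyte markers were present throughout, with summed CPM of 87383 to 103269 in refed and 127718 to 141378 in fasted libraries. In the test described below, 5 of these 7 markers were called higher and 1 lower. That is 85.7% called and 71.4% higher, against 59.4% and 29.2% of all genes tested, so their sum does not measure hepatocyte content alone. The part of these cells in the results below was not tested, and the members were therefore also compared without fasted replicate 3. In bulk liver, fewer cells of a type and less RNA per cell cannot be told apart.

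Transporter transcripts were more often higher than lower in fasted livers. Of the 56 members, 35 passed the filter on low counts and were tested with edgeR's quasi-likelihood test, and 21 did not pass it. At a Benjamini-Hochberg adjusted p under 0.05 over all 13248 genes tested, 17 members were called higher, 7 were called lower and 11 did not pass. Among the 17, Slc7a6, Slc7a1 and Slc6a18 passed the filter on low counts only through the fasted libraries, where they were high. No lower member passed it only through the refed libraries. The shares and the median below include Slc7a6, Slc7a1 and Slc6a18. The share of tested members called was 68.6%, near the share of all genes tested, 59.4%. Calls of higher genes made up 29.2% of all genes tested and calls of lower genes 30.2%, whereas among the tested members they made up 48.6% and 20.0%. The median log2 fold change of the tested members, fasted minus refed, was 0.62, and over all genes tested it was -0.00039. Increases of at least 2-fold were called in 12 members and decreases of at least 2-fold in 3, and over all genes tested such calls made up 14.6% and 17.1%. The 24 called members were also those whose 3 fasted libraries lay entirely above or entirely below the 3 refed ones, a separation that 67.2% of all genes tested showed. When libraries were scaled by their totals alone, the median of all genes moved by -0.21 on the log2 scale, and 14 members were higher and 7 lower. Over all genes tested, 2873 were then higher and 5074 lower. Higher genes made up 36.2% of all calls and 66.7% of the calls among members with that scaling.

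**Figure D1:**
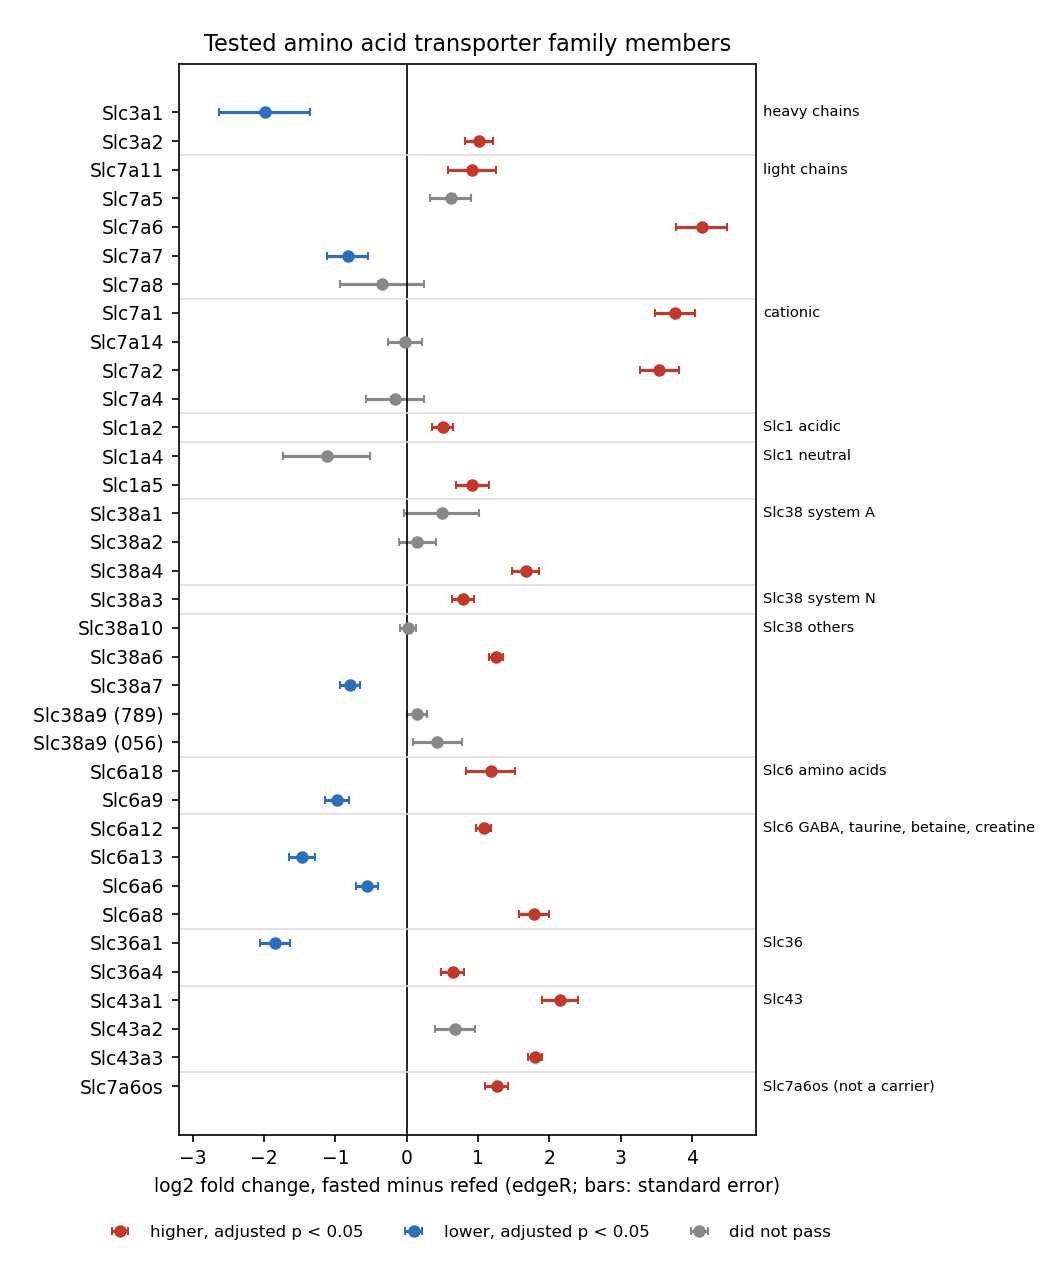
Log2 fold change of the 35 tested members (fasted minus refed, edgeR), ordered by role, with bars showing the standard error. Red points are called higher, blue points lower and grey points did not pass at an adjusted p under 0.05. The 3 largest values, Slc7a6 at 4.14, Slc7a1 at 3.76 and Slc7a2 at 3.55, all belong to the Slc7 family, and both heavy chains and the Slc6 carriers hold points on each side of 0.

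The start-site regions of 5 members are shown because these genes rose most (Slc7a1, Slc7a6), are a cystine carrier known as a stress target (Slc7a11), had the highest refed level per length among the members that fell (Slc6a13) or differed between fasted libraries (Slc1a4). Each holds 250 bases before and 50 bases from the RefSeq transcript start in GRCm38.p6, printed 5′ to 3′ on the gene's strand. Slc7a1 has 1 further window and Slc6a13 has 2 further windows at other start sites, none of which holds a match, and both windows of Slc7a6 hold the match shown. Each of the 5 regions holds a match, whereas most members with a window hold none. The window of Slc3a1, which differed as much between fasted libraries as Slc1a4, holds none and is not shown. The same is true of Slc3a2 and Slc1a2, so the regions shown do not stand for the members. Capitals mark a match, on either strand, to the core of the C/EBP and ATF response element (CARE), TGATGNAA, or of the antioxidant response element (ARE), TGACNNNGC.
Slc7a1, chr5:148399855-148400154, minus strand, ARE: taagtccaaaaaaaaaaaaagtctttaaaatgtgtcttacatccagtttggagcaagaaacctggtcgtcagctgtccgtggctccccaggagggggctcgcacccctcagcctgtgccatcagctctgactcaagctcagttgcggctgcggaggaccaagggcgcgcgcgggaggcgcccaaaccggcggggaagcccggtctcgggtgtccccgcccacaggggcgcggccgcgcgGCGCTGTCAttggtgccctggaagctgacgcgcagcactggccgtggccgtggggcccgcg
Slc7a6, chr8:106168604-106168903, plus strand, ARE: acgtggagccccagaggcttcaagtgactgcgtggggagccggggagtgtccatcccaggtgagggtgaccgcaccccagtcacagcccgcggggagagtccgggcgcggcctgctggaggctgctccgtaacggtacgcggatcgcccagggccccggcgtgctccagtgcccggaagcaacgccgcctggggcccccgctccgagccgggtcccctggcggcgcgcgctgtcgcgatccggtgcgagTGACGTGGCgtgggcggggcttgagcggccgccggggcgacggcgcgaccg
Slc7a11, chr3:50443564-50443863, minus strand, CARE: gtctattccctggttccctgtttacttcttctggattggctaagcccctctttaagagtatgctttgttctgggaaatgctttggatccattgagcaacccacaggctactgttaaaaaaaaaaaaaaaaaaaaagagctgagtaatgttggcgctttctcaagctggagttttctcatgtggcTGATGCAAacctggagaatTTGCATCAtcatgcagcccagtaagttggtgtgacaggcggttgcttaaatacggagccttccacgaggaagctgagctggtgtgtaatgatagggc
Slc6a13, chr6:121300038-121300337, plus strand, ARE: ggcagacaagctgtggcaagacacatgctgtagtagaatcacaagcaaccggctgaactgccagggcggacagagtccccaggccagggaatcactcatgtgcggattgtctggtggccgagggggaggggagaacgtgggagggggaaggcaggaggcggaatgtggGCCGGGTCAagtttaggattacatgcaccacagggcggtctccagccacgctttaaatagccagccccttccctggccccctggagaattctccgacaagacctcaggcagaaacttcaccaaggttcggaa
Slc1a4, chr11:20332664-20332963, minus strand, CARE: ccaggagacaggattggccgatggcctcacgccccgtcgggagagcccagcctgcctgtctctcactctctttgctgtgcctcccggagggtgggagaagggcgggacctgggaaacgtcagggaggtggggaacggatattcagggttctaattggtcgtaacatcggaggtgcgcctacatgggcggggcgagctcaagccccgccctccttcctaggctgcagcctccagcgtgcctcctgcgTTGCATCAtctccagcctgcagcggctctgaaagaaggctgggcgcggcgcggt

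RefSeq windows were at hand for 40 of the 55 member symbols, and Slc7a2 was not among them. The CARE core was present in a window of 1 of 11 higher members (Slc7a11, with 2 matches), of 1 of 6 lower members (Slc7a7) and of 1 of 7 members that did not pass (Slc1a4). Over all 27025 genes with a window its share was 4.51%. The ARE core occurred in 3 of 11 higher members (Slc43a1, Slc7a1 and Slc7a6), in 3 of 6 lower members (Slc36a1, Slc6a13 and Slc6a9) and in 1 of 7 that did not pass (Slc38a2), and its share over all genes with a window was 14.0%. A gene was counted when any of its windows matched, so genes with more start sites had more chances. The members held 61 windows for 40 symbols and all genes 32851 for 27025, so these shares are not on equal terms. No member had a window match to both motifs, so no matches of the 2 motifs overlapped, and matches were spread over higher, lower and uncalled members. A match is a description of the letters and not a site.

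Of the 5 members grouped as cationic carriers, 4 were tested, and the arginine and lysine carriers Slc7a2 and Slc7a1 rose strongly. Slc7a3 did not pass the filter on low counts. Slc7a2 (chr8:41947750-42007662, mm9), the cationic carrier typical of liver, stood at 166, 112 and 201 CPM in refed replicates 1, 2 and 3 and at 1807, 1504 and 2285 CPM in fasted replicates 1, 2 and 3. The groups were far apart, and fasted replicate 3 was the highest library. The difference was 11.7-fold (log2 fold change 3.55, SE 0.27, adjusted p = 2.74e-05). Slc7a1 (chr5:149138986-149211480, mm9), the widely expressed cationic carrier, was at 0.347, 0.253 and 0.256 CPM in refed livers and at 3.54, 3.29 and 4.84 CPM in fasted livers. It rose 13.5-fold from a level close to the floor (log2 fold change 3.76, SE 0.28, adjusted p = 2.58e-05). Slc7a1 passed the filter on low counts only through the fasted libraries. Its related members Slc7a4 and Slc7a14 stayed below 1 CPM in every library and did not pass, with log2 fold changes of -0.16 and -0.02, and the sign of each turned when single fasted libraries were left out. Both rises held in each of the 13 alternatives run, with log2 fold changes of 3.34 to 3.73 for Slc7a2 and 3.55 to 3.91 for Slc7a1.

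The heavy chains moved in opposite directions. Slc3a2 (chr19:8781372-8797859, mm9), the heavy chain that brings most light chains to the cell surface, was at 37.1, 38.2 and 32.7 CPM in refed livers and at 86.6, 81.0 and 50.5 CPM in fasted livers. All fasted libraries lay above all refed ones, and fasted replicate 3 was the lowest of them. Slc3a2 rose 2.02-fold (log2 fold change 1.01, SE 0.20, adjusted p = 0.00297), or by 1.22 on the log2 scale without fasted replicate 3. Slc3a1 (chr17:85427687-85463583, mm9), the heavy chain known for cystine and cationic amino acid uptake in kidney and gut, was at 33.7, 18.2 and 18.2 CPM in refed livers and at 2.43, 2.70 and 12.5 CPM in fasted livers. Its groups did not overlap, but refed replicate 1 and fasted replicate 3 each stood well above the rest of their group. Slc3a1 was 3.97-fold lower (log2 fold change -1.99, SE 0.64, adjusted p = 0.0302). Without fasted replicate 3 the log2 fold change was -3.18 (adjusted p = 0.00044), and leaving out refed replicate 1 or 2, or fasted replicate 1 or 2, ended the call (adjusted p = 0.0623 to 0.102). Slc3a1 overlaps the peptidase gene Prepl, whose counts were 852 to 1038 in refed and 293 to 374 in fasted libraries, so reads of the pair may be confused where strand was not used in counting.

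Light chains were mixed, with 2 of the 5 tested called higher, 1 called lower and 2 without a call. Slc7a6 (chr8:108692775-108722604, mm9), which exchanges cationic for neutral amino acids with Slc3a2, was at 0.158, 0.253 and 0.0852 CPM in refed livers and at 3.18, 2.48 and 3.29 CPM in fasted livers. Its refed counts were 5, 9 and 3, near the floor of 3 counts, and the groups were widely separated. Slc7a6 passed the filter on low counts only through the fasted libraries. At 17.6-fold it had the largest fold change of the tested members (log2 fold change 4.14, SE 0.36, adjusted p = 4.79e-05). Its neighbour Slc7a6os, 1734 bases away, was at 12.9, 11.8 and 10.8 CPM in refed livers and at 24.6, 25.9 and 35.0 CPM in fasted livers. That gene, which is not a carrier, rose 2.41-fold (log2 fold change 1.27, SE 0.16, adjusted p = 0.000296).

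Slc7a11, the light chain that takes up cystine in exchange for glutamate and so feeds glutathione synthesis, was scarce in every library. It was at 0.442, 0.394 and 0.454 CPM in refed livers and at 1.14, 0.683 and 0.609 CPM in fasted livers. The groups did not overlap, although fasted replicates 2 and 3 were not far above the refed libraries. The rise of 1.88-fold only just passed (log2 fold change 0.91, SE 0.34, adjusted p = 0.0456). It was lost in 10 of the 12 alternatives that gave a value, among them DESeq2 (adjusted p = 0.0816) and the removal of any library other than fasted replicate 3, with adjusted p up to 0.177 without fasted replicate 1. Slc7a7, the other exchanger of cationic for neutral amino acids, was at 1.73 to 3.09 CPM in refed and 1.08 to 1.55 CPM in fasted livers. It fell by 0.83 on the log2 scale (adjusted p = 0.0372), a call that was lost without refed replicate 1 or 2 or without fasted replicate 1 or 3 (adjusted p = 0.0555 to 0.140). Slc7a7 overlaps Oxa1l, whose counts were higher in fasted livers, 1997 to 2089 against 1217 to 1319. The neutral amino acid light chains Slc7a5 and Slc7a8 did not pass, with log2 fold changes of 0.62 and -0.35.

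Because Slc7a5, Slc7a6, Slc7a7, Slc7a8, Slc7a10 and Slc7a11 are light chains that need Slc3a2, its level was set beside theirs per length. The authors' normalized signal per kb of gene length summed over these light chains to 75.1 ± 9.13 in the refed group and to 98.1 ± 14.6 in the fasted group (SD, n = 3). On the same scale Slc3a2 alone gave 456 ± 37.6 and 923 ± 252 (SD, n = 3). The ratio of Slc3a2 to its light chains was 5.58, 7.32 and 5.52 in refed replicates 1, 2 and 3 and 12.9, 10.9 and 5.58 in fasted replicates 1, 2 and 3. It was higher in fasted replicates 1 and 2 than in any refed library, whereas fasted replicate 3 fell among the refed values. With the longest transcript as the length, fasted replicate 3 was at 5.49, just below the lowest refed library, at 5.54. Slc3a2 transcript thus exceeded the light chain sum in every library.

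**Figure D2:**
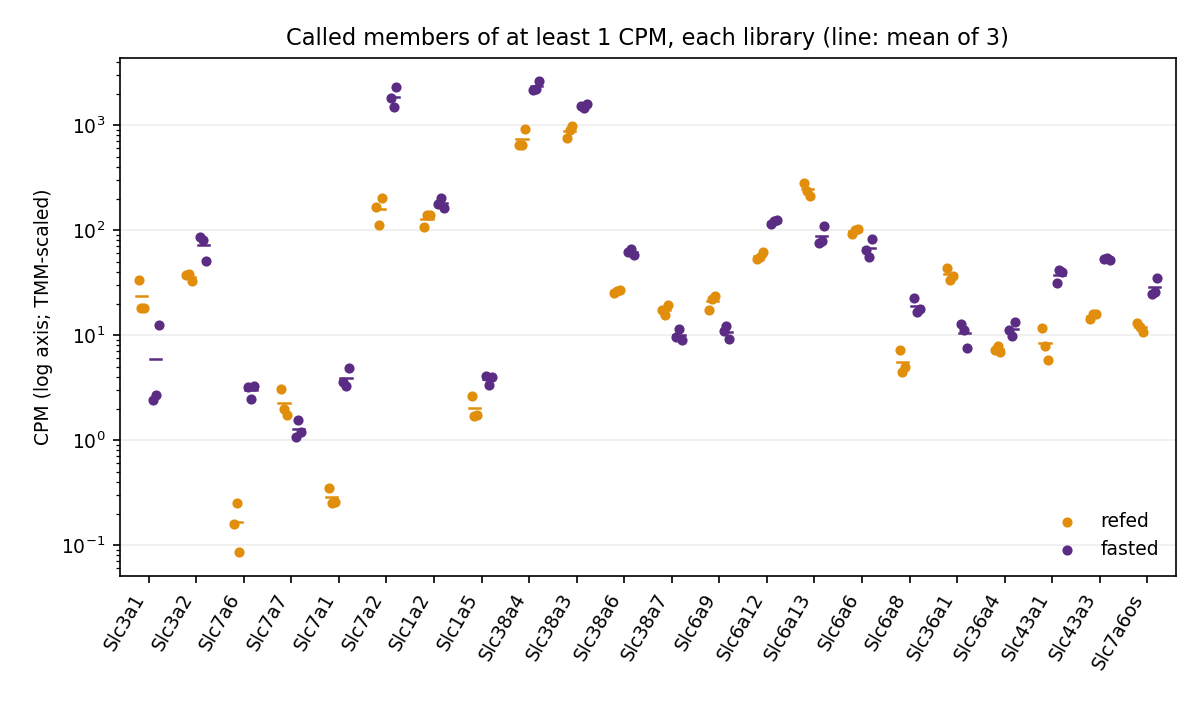
CPM of the called members with a mean of at least 1 CPM, on a log axis, with 1 point for each library (orange, 3 refed; purple, 3 fasted) and a line at the mean of each group. The groups do not overlap for any gene shown; Slc7a2 moves from 112 to 201 CPM up to 1504 to 2285 CPM, and fasted replicate 3 of Slc3a1, at 12.5 CPM, stands above the other fasted libraries.

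In the Slc38 family the most abundant members, Slc38a4 and Slc38a3, rose, as did the less abundant Slc38a6. Slc38a4 (chr15:96825254-96886387, mm9), the system A carrier characteristic of liver, which takes up alanine and other small neutral amino acids, was at 647, 644 and 919 CPM in refed livers and at 2178, 2225 and 2622 CPM in fasted livers. Every fasted library was more than 2-fold above every refed one. The difference was 3.18-fold (log2 fold change 1.67, SE 0.19, adjusted p = 0.000187). Slc38a3, the system N carrier of glutamine and histidine, was at 760, 889 and 985 CPM in refed livers and at 1516, 1440 and 1599 CPM in fasted livers. It rose 1.73-fold with no overlap (log2 fold change 0.79, SE 0.15, adjusted p = 0.00254). Slc38a6, a less studied member, was at 25.2, 26.2 and 26.7 CPM in refed livers and at 61.8, 66.8 and 58.1 CPM in fasted livers, a rise of 2.39-fold (log2 fold change 1.26, SE 0.10, adjusted p = 3.54e-05).

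Other Slc38 members did not follow. Slc38a2, the widely expressed system A carrier known to be induced when cultured cells lack amino acids, was at 224, 115 and 161 CPM in refed livers and at 174, 148 and 232 CPM in fasted livers. The groups overlapped throughout, and the log2 fold change of 0.15 (SE 0.26, adjusted p = 0.645) changed sign without refed replicate 2, without fasted replicate 3 and with library totals. Slc38a10 was at 109, 98.8 and 101 CPM in refed livers and at 106, 112 and 95.7 CPM in fasted livers, with a log2 fold change of 0.03 (SE 0.11, adjusted p = 0.857) that turned negative in 4 alternatives. Slc38a7, which exports glutamine and asparagine from lysosomes, was at 17.3, 15.6 and 19.4 CPM in refed livers and at 9.69, 11.5 and 8.98 CPM in fasted livers. It fell by 0.80 on the log2 scale (SE 0.14, adjusted p = 0.00180). The Slc38a9 rows, at log2 fold changes of 0.14 and 0.43, and Slc38a1, at 0.49, did not pass. Slc38a1 and Slc38a2 lie next to each other on chromosome 15, 44481 bases apart in mm9.

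Of the Slc1 carriers, 3 were tested, and 2 rose and 1 did not pass. Slc1a2, the glutamate carrier that in liver is known from hepatocytes around the central vein, was at 106, 139 and 140 CPM in refed livers and at 179, 204 and 164 CPM in fasted livers. All fasted libraries were above all refed ones, by a small margin. The rise was 1.42-fold (log2 fold change 0.50, SE 0.15, adjusted p = 0.0198). It was lost without refed replicate 1 (adjusted p = 0.0830), without fasted replicate 2 (adjusted p = 0.0639) and with library totals (adjusted p = 0.115). Of the 8 pericentral hepatocyte markers, 1 rose and 2 fell, and their summed CPM was 8628 to 10093 in refed and 10113 to 11959 in fasted libraries. Of the 7 periportal markers, 5 rose and 1 fell, with summed CPM of 4646 to 5192 in refed and 12706 to 13712 in fasted libraries. Called markers made up 37.5% of the pericentral and 85.7% of the periportal list, against 59.4% of all genes tested. Higher calls made up 12.5% and 71.4%, against 29.2%. The periportal markers Gls2, Sds and Arg1 also belong to the list of enzymes that use the carried amino acids, given below. The part of these hepatocyte zones was not tested.

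Slc1a5, a neutral amino acid exchanger that carries glutamine, was at 1.69 to 2.62 CPM in refed and 3.35 to 4.05 CPM in fasted livers and rose 1.90-fold (log2 fold change 0.92, adjusted p = 0.00844). Slc1a4 (chr11:20202183-20232716, mm9), the related exchanger of alanine, serine and cysteine, is described in full because its fasted libraries disagreed, a choice made after its values were seen. It was at 3.60, 4.22 and 4.46 CPM in refed livers and at 0.570, 1.06 and 4.02 CPM in fasted livers. Fasted replicate 3 lay within the refed range and the other fasted libraries far below it. With all libraries Slc1a4 did not pass (log2 fold change -1.12, SE 0.61, adjusted p = 0.148). Without fasted replicate 3 its log2 fold change was -2.33 (adjusted p = 7.7e-05).

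The Slc6 carriers of osmolytes and related compounds changed in both directions, 2 up and 2 down of 4 tested. Slc6a13, a carrier of GABA and taurine found in liver, was at 284, 236 and 214 CPM in refed livers and at 75.3, 79.2 and 110 CPM in fasted livers. Every refed library was well above every fasted one, and the decrease was 2.77-fold (log2 fold change -1.47, SE 0.19, adjusted p = 0.000289). Slc6a12, the betaine and GABA carrier, was at 53.0, 56.0 and 61.8 CPM in refed livers and at 115, 122 and 124 CPM in fasted livers. It rose 2.12-fold (log2 fold change 1.08, SE 0.11, adjusted p = 9.33e-05). The gene bodies of Slc6a13 and Slc6a12 lie 5343 bases apart on chromosome 6 in mm9. Per kb of the authors' gene length, the ratio of Slc6a13 to Slc6a12 was 4.68, 3.68 and 3.02 in refed livers and 0.572, 0.566 and 0.778 in fasted livers. Slc6a13 thus had the higher level of the pair in each refed library and the lower in each fasted one. With the longest transcript as the length the mean ratio was 5.14 in refed and 0.865 in fasted livers, although fasted replicate 3, at 1.05, then stayed above 1.

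Slc6a8, the creatine carrier, was at 7.16, 4.42 and 4.97 CPM in refed livers and at 22.7, 16.6 and 17.7 CPM in fasted livers, a rise of 3.45-fold (log2 fold change 1.79, SE 0.21, adjusted p = 0.000215). Slc6a6, the taurine carrier, was at 92.5, 101 and 102 CPM in refed livers and at 64.6, 55.0 and 81.8 CPM in fasted livers. It was 1.47-fold lower (log2 fold change -0.55, SE 0.15, adjusted p = 0.0140). Both taurine carriers of the family, Slc6a6 and Slc6a13, were therefore lower in fasted livers. Slc6a9, the glycine carrier, was at 17.2, 22.3 and 23.7 CPM in refed livers and at 10.9, 12.2 and 9.11 CPM in fasted livers, and was 1.96-fold lower (log2 fold change -0.97, SE 0.17, adjusted p = 0.00132). Slc6a18, known from kidney, was below 0.5 CPM in every library; its rise (log2 fold change 1.18, adjusted p = 0.0188) was lost in 6 of the 12 alternatives that gave a value, among them the removal of refed replicate 2 or 3 or fasted replicate 1 or 2 (adjusted p = 0.0511 to 0.0847).

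The Slc36 and Slc43 families held clear changes as well. Slc36a1, a proton-coupled carrier that exports small amino acids from lysosomes, was at 43.8, 33.6 and 36.2 CPM in refed livers and at 12.8, 11.3 and 7.49 CPM in fasted livers. It was 3.60-fold lower with wide separation (log2 fold change -1.85, SE 0.21, adjusted p = 0.000182). Slc36a4, a relative with high affinity for proline and tryptophan, went the other way, from 7.28, 7.96 and 6.87 CPM to 11.3, 9.84 and 13.4 CPM (log2 fold change 0.64, SE 0.15, adjusted p = 0.00728); with library totals this call was lost (adjusted p = 0.0528).

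Slc43a1, which lets branched-chain and other large neutral amino acids pass without sodium, was at 11.6, 7.94 and 5.85 CPM in refed livers and at 31.6, 41.6 and 39.6 CPM in fasted livers. The rise was 4.45-fold (log2 fold change 2.15, SE 0.25, adjusted p = 0.000245). Slc43a3, the nucleobase carrier, was at 14.1, 15.8 and 16.0 CPM in refed livers and at 53.0, 54.8 and 52.3 CPM in fasted livers. Its libraries were nearly level within each group, and it rose 3.49-fold (log2 fold change 1.80, SE 0.10, adjusted p = 8.40e-06). The gene bodies lie 72985 bases apart on chromosome 2 in mm9. Slc43a2, the other large neutral amino acid carrier of the family, did not pass (log2 fold change 0.68, adjusted p = 0.0616), and it passed with DESeq2 (adjusted p = 0.0370) and without fasted replicate 1 (adjusted p = 0.0302).

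Levels were compared between members per length, because longer transcripts collect more reads. The summed normalized signal per kb of all members other than Slc7a6os was 54750 ± 3842 for refed livers and 110292 ± 7410 for fasted livers (SD, n = 3). Each fasted library, at 105449 to 118822, was above each refed one, at 52404 to 59184. A small number of carriers held most of it. In refed livers Slc38a4, Slc38a3 and Slc6a13 together took 58.1% ± 1.09, and in fasted livers Slc38a4, Slc38a3 and Slc7a2 took 69.0% ± 2.79 (SD, n = 3).

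The arginine carrier Slc7a2 moved from rank 7 to rank 3, with shares of 2.92%, 1.98% and 3.13% in refed replicates 1, 2 and 3 and of 15.8%, 13.2% and 17.7% in fasted replicates 1, 2 and 3. Slc6a13 moved from rank 3 to rank 7, with shares of 19.0%, 15.9% and 12.7% in refed and of 2.51%, 2.65% and 3.26% in fasted livers. Slc38a4 had a share of 23.2% ± 3.21 among refed and of 36.9% ± 1.21 among fasted livers, and Slc38a3 took 19.0% ± 1.62 and 16.4% ± 0.567 (SD, n = 3). In fasted livers the shares of Slc38a3 and Slc7a2 overlapped on this length.

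The length behind these shares matters for some genes. The authors' gene length was nearer to the median than to the longest GENCODE transcript length for 39 of 55 members, and for Slc1a2 it was 0.567 kb against a longest transcript of 11.6 kb. With the longest transcript length, added after the data were seen, Slc1a2 fell from rank 4 in both groups to rank 10 in refed and 11 in fasted livers, and Slc38a3 led in refed livers with 36.7% ± 3.24 (SD, n = 3). In fasted livers the shares of Slc38a3, 29.2% to 31.7%, and of Slc7a2, 12.9% to 16.6%, then no longer overlapped. The 3 leading carriers named above took 75.8% ± 2.35 in refed and 83.3% ± 0.871 in fasted livers, larger shares than with the authors' length. Slc6a13 moved from rank 3 to rank 5 instead of 7. Slc7a2 still moved from rank 7 to rank 3, and its share from 2.64% ± 0.580 to 14.9% ± 1.86 (SD, n = 3). The summed signal then rose from 25830 ± 2065 to 53793 ± 4588 (SD, n = 3).

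**Figure D3:**
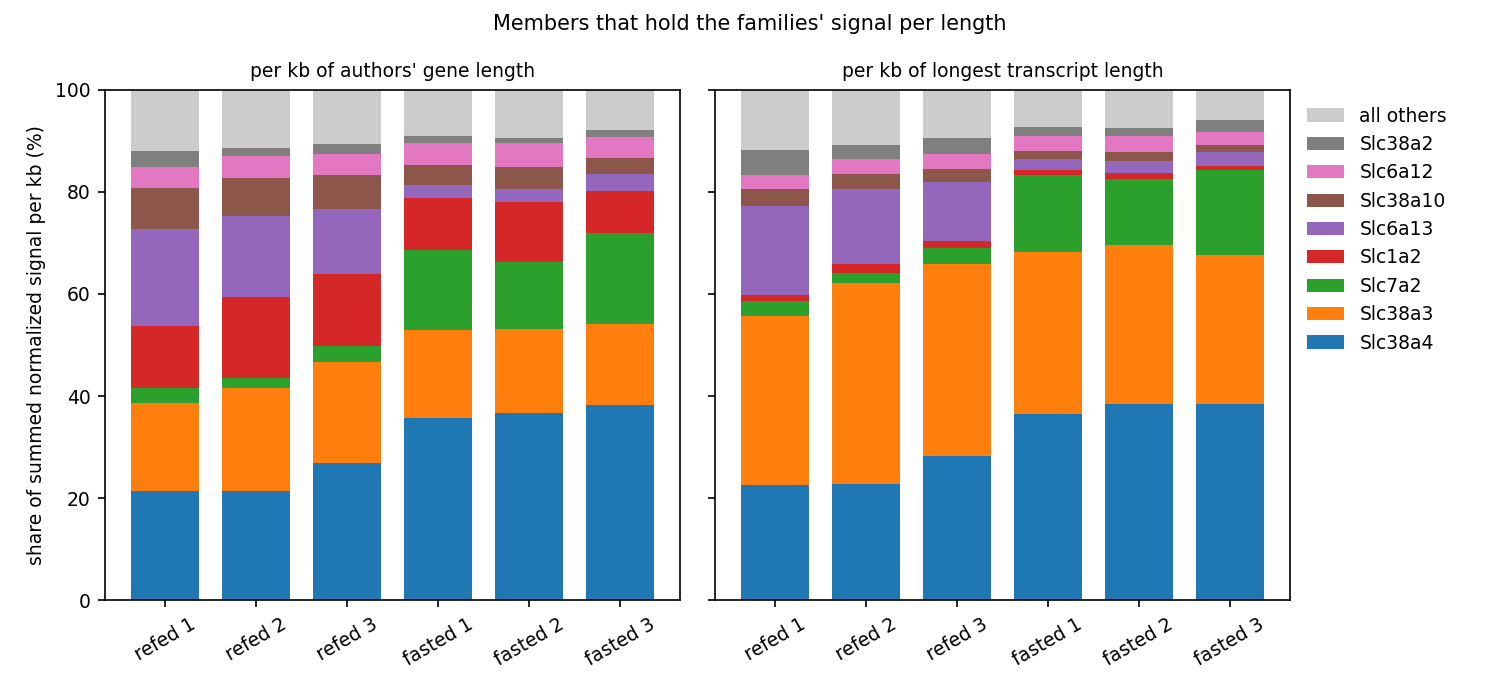
Share of the summed normalized signal per kb, in percent, held by each of 8 members and by all others, for each of 6 libraries, with the authors' gene length on the left and the longest transcript length on the right. Slc7a2 (green) takes 1.98% to 3.13% in refed and 13.2% to 17.7% in fasted libraries on the left, and Slc6a13 (purple) shrinks in both panels.

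Without fasted replicate 3, 17 members were higher and 7 lower, among 64.3% of all 13559 genes then tested, and the median log2 fold change of the members was 0.42, against 0.62 with all libraries. The lower members were not the same, as Slc7a7 lost its call (adjusted p = 0.0555) and Slc1a4 gained one (adjusted p = 7.7e-05). The values of Slc7a4 (-0.16 to -0.68), Slc38a1 (0.49 to 0.02), Slc43a2 (0.68 to 0.33) and Slc7a5 (0.62 to 0.32) moved downward without fasted replicate 3, and none of the 4 passed in either fit. In that library 21 tested members stood above the mean of fasted replicates 1 and 2, and 14 stood below it. The difference was over 2-fold for Slc3a1, Slc1a4 and Slc38a1, with log2 differences of 2.24, 2.23 and 1.07. The largest increases barely depended on that library, at log2 fold changes of 4.07 for Slc7a6, 3.58 for Slc7a1 and 3.38 for Slc7a2 without it.

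**Figure D4:**
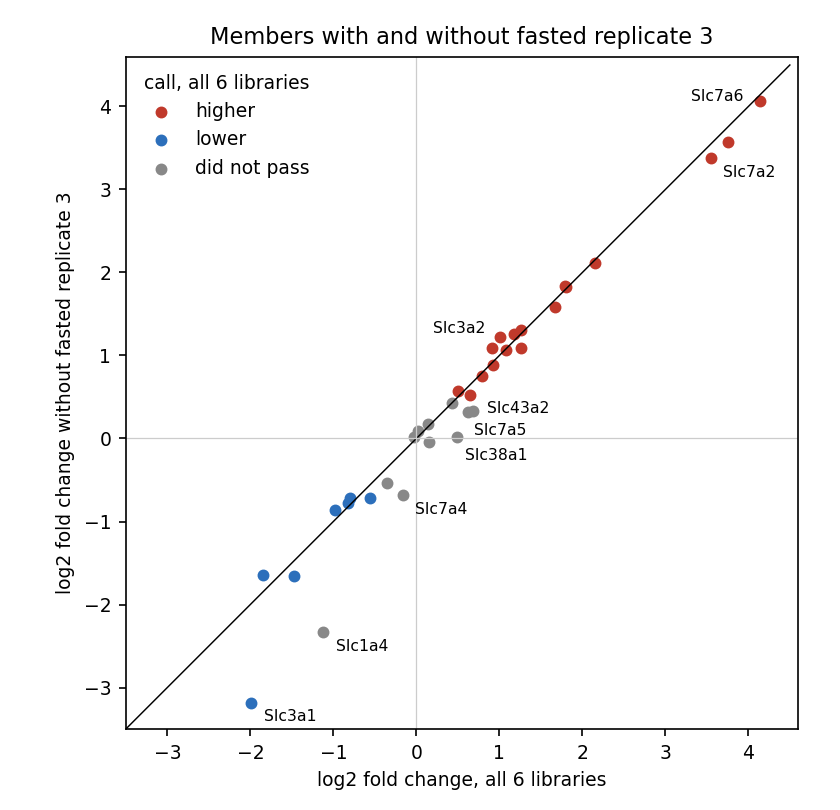
Log2 fold change of the tested members with all 6 libraries (x axis) and without fasted replicate 3 (y axis), coloured by the call with all 6 libraries; the diagonal marks equal values. The value moves by more than 0.1 for 18 of 35 members and by more than 0.3 for 6, among which Slc3a1 moves from -1.99 to -3.18 and Slc1a4 from -1.12 to -2.33.

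Lists of genes that work with these carriers were read in the same fit. Of 31 regulators and amino acid sensing genes, all tested, 18 rose, 3 fell and 10 did not pass, with a median log2 fold change of 0.71. That is 67.7% called, near the 59.4% of all genes tested, and 58.1% higher, where 29.2% of all genes tested were higher. The lowest p-values belonged to Atf3, a stress-induced transcription factor, Trib3, a pseudokinase induced by amino acid shortage, and Sesn2, a leucine sensor. Atf3 was at 1.54, 2.22 and 1.42 CPM in refed and 58.8, 45.1 and 56.7 CPM in fasted livers (log2 fold change 4.95, SE 0.20, adjusted p = 3.68e-06). Trib3 (log2 fold change 4.02) and Sesn2 (log2 fold change 4.21) were at most 4.54 CPM in any refed and at least 20.5 CPM in any fasted library. Of 31 enzymes that use the carried amino acids, 30 were tested, 17 rose, 8 fell and 5 did not pass (median 0.75), so that 83.3% were called and 56.7% higher, against the same 59.4% and 29.2% over all genes tested. Arg1, which splits the arginine that Slc7a2 carries, was at 1106, 1254 and 1281 CPM in refed and at 5830, 5393 and 3981 CPM in fasted livers (log2 fold change 2.06, SE 0.19, adjusted p = 6.66e-05). Got1 and Sdsl, which act on aspartate and serine, had lower p-values, with log2 fold changes of 5.38 and 2.86.

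Of 17 listed carriers of amino acids and peptides from other families, 15 were found and 13 tested, and 5 rose, 4 fell and 4 did not pass (median log2 fold change 0.53). The 69.2% called lies near the 59.4% of all genes tested. The lysosomal exporter of cationic amino acids Pqlc2 was at 8.39, 8.87 and 9.71 CPM in refed and at 24.1, 22.4 and 24.3 CPM in fasted livers (log2 fold change 1.39, SE 0.12, adjusted p = 4.09e-05). Spns1, also among the leading genes of that list, is a lysosomal carrier known mainly for phospholipids (log2 fold change 1.03). Of 17 partners and turnover factors, 15 were tested, 6 rose, 2 fell and 7 did not pass (median 0.45), and the 53.3% called is likewise near 59.4%. Anpep, a peptidase that partners neutral amino acid carriers in gut and kidney, fell by 1.64 on the log2 scale, and Rnf5, a ubiquitin ligase known in human cells to target glutamine carriers, fell by 1.11. Txnip, an arrestin-like protein known to act on glucose carriers, was at 25.6 to 32.6 CPM in refed livers and at 978, 562 and 257 CPM in fasted replicates 1, 2 and 3 (log2 fold change 4.38, SE 0.48, adjusted p = 0.000221).

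In the authors' deposited table, 21 members were higher and 8 lower at their adjusted p under 0.05, where 39.4% of all genes with a value were called. All 24 members called here had the same direction in the authors' deposited table. The 5 further members called there were below the count filter used here.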

How the data were processed

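Liver RNA was measured by RNA sequencing in 6 libraries, 3 refed and 3 fasted. The gene families, gene lists, tests and alternatives were chosen with earlier results of these data known.

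Per the labels' protocols, Trizol was used for extraction and the libraries followed Illumina's standard procedure. In the submitters' processing notes the tools are HTSeq 0.5.4p3, TopHat2 2.0.10, DESeq2 1.0.19 and Bowtie2 2.1.0, with no roles, and the build is mm9. Per the file headers, the authors deposited whole-number raw counts per gene, and these counts were tested. The authors also deposited a normalized signal, which is the count divided by 1 size factor per library, and the same signal per kb of gene length. The authors' deposited log2 fold change and their p-value, with its adjusted form, were used only where named. The sources used here do not say how strand was handled in counting or which annotation release was used, so genes that overlap are uncertain.

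The test was edgeR's quasi-likelihood test (edgeR 4.0.16, R 4.3.3) in its robust form, with TMM factors and a model of group alone, on the 13248 genes that filterByExpr kept at its minimum count of 10. Benjamini-Hochberg adjustment ran over all of them, with calls at an adjusted p under 0.05. Dividing a log2 fold change by the root of its F statistic gave the standard error. The main fit did not treat libraries of the same replicate number as paired. Checks of counts found no duplicated library, and the fit was tested on simulated data. Depth was 29574528 to 36026753 counts, and floors cover counting error only.

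Values in every library are given for called members changed at least 2-fold with a mean of at least 1 CPM, for members of at least 10 CPM, and for Slc7a11, Slc3a2 and Slc1a2. Of each list of other genes, the 3 with the lowest p are named, apart from a result that is not reported here. Alternatives tried were DESeq2 1.42.0, limma-voom (limma 3.58.1), size factors by DESeq2's method, library totals, no count filter, a mean of at least 1 CPM, a block for replicate number, and the removal of each library in turn. Transcript lengths came from GENCODE vM21 and promoter windows from RefSeq (GRCm38.p6), of another build than the files, so coordinates were never carried over.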

Additional observations from a re-analysis of the deposited data

How the results depend on the processing

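Of the 24 called members, 18 kept the call in all 13 alternatives, and Slc36a4, Slc1a2, Slc3a1, Slc7a7, Slc6a18 and Slc7a11 lost it in at least 1. Over the alternatives that keep all libraries, 14 to 19 members were higher and 5 to 8 lower, and with each library left out in turn 15 to 17 were higher and 5 to 7 lower. The median log2 fold change of the members was 0.41 to 0.67 and 0.42 to 0.74. Over all genes, 2873 to 3950 were higher and 3546 to 5074 lower in the former, and 3151 to 4281 and 3411 to 4431 in the latter.

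Same-numbered libraries did not deviate together (correlations -0.016, -0.062 and -0.081). With 3 libraries in each group such correlations cannot show whether the libraries were paired, and the main fit did not pair them. With the replicate block 18 members were higher and 5 lower, with a median of 0.60, Slc3a1 (adjusted p = 0.0522) and Slc7a7 (0.0651) lost the call, Slc43a2 (0.0281) and Slc7a5 (0.0378) passed, and 3558 genes were higher and 3782 lower. Slc1a4 passed with limma-voom (adjusted p = 0.0329). Slc3a1 was lost without the count filter (adjusted p = 0.150).

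The sign turned for members that passed in no setting. With library totals Slc38a9 (ENSMUSG00000047789) was at -0.072, Slc38a2 at -0.055 and Slc38a10 at -0.19, and without the count filter Slc38a10 was at -0.0042. Over the removal of single libraries the log2 fold change ran from -0.068 to 0.41 for Slc38a2, from -0.022 to 0.089 for Slc38a10, from -0.68 to 0.075 for Slc7a4, from -0.81 to 0.14 for Slc7a8 and from -0.053 to 0.015 for Slc7a14. The cause was not tested. With the longest transcript as length, the share of Slc38a3 moved to 36.7% in refed and 30.7% in fasted livers, since that length is close to the authors' length for this gene and longer than it for others. Members under about 1 CPM rest on few counts.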

Other observations

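The 21 members below the count filter had at most 15 counts and 0.45 CPM in any library, and 11 of them had at most 3 counts in every library. None was without a read. Slc6a19, a neutral amino acid carrier known from gut and kidney, had 0 reads over the refed libraries and 26 over the fasted ones, at least 9.03-fold higher against a floor of 3 counts over the group. In the authors' deposited table it was called higher, with a log2 fold change of 2.97. The authors' deposited table also called Slc7a15 (2.05), Slc6a20b (1.72) and Slc1a3 (1.28) higher and Slc38a11 (-1.56) lower on the log2 scale. The levels of Slc7a15 were 0.0315, 0 and 0.0568 CPM in refed and 0.360, 0.280 and 0.122 CPM in fasted replicates 1, 2 and 3. Slc6a18 and Slc6a19 lie 1722 bases apart on chromosome 13 in mm9, and both had more reads in each fasted than in any refed library.

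Marker lists of other cell types gave the following counts, where 59.4% of all genes tested were called, 29.2% higher and 30.2% lower. Of the endothelial markers, 2 of 6 tested rose, with summed CPM of 50.3 to 92.2 in refed and 66.4 to 114 in fasted libraries. Of the stellate markers, 1 rose and 2 fell of 7 tested, with summed CPM of 108 to 130 and 185 to 269. Of the cholangiocyte markers, 2 rose and 1 fell of 5 tested, with 26.1 to 44.2 and 15.9 to 27.5 CPM. Among erythroid markers 1 of 5 tested fell, with 180 to 225 and 98.2 to 167 CPM. The lymphocyte markers summed to at most 1.43 CPM in any library and 1 was tested, which rose. Pancreas markers summed to 10.4 to 13.8 CPM in refed and 3.08 to 3.57 CPM in fasted libraries, with 1 of 2 tested lower. Adipocyte markers reached 4.67 CPM in refed replicate 2 and at most 0.426 CPM elsewhere, and skeletal muscle markers at most 0.217 CPM.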
